A study of Yarrowia lipolytica with 12 samples.

Results

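YHT1 to YHT4 are 4 hexose transporter genes of the yeast *Yarrowia lipolytica*, and their transcripts were followed in cells grown on N-acetylglucosamine (GlcNAc) in place of glucose. They were chosen by name, as the genes YALI0_C06424g (YHT1), YALI0_C08943g (YHT2), YALI0_F19184g (YHT3) and YALI0_E23287g (YHT4). All 4 were among the 6400 genes listed in the deposited tables. RNA-Seq was carried out on 12 libraries in 4 groups of 3: Ylrep1Δ cells carrying pYL27-4NAG, Ylngs1Δ cells carrying pYL27-4NAG, wild-type (WT) cells carrying pYL27-4NAG, and WT cells carrying the empty vector pYL27. All strains derived from the auxotrophic strain PO1a, and growth was in YNB-GlcNAc, a liquid medium made of a defined nitrogen base with GlcNAc as the sugar, plus uracil. The plasmid pYL27-4NAG holds the genes for GlcNAc uptake and breakdown (YlNGT1, YlNAG5, YlDAC1 and YlNAG1), each behind the constitutive YlACT1 promoter, so that cells lacking either regulator could still use the sugar. YlRep1 is a transcription factor of the Ndt80 family and YlNgs1 is related to Ngs1 of *Candida albicans*, a sensor of GlcNAc, and each deletion is listed as a single strain, in which a loxR/P scar replaces the gene. According to the study's text, both mutants grew more slowly than WT in this medium.

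Hexose transporters of yeasts are membrane proteins of the major facilitator superfamily that let glucose, fructose and mannose into the cell down their concentration gradient or with a proton. GlcNAc enters through a separate carrier, Ngt1. In *Y. lipolytica*, Yht1 and Yht4 are known as the main carriers of hexoses, while Yht2 and Yht3 can carry hexoses when expressed but are little used by WT cells. The study's annotation describes YHT1 as similar to Snf3 of *Saccharomyces cerevisiae*, a membrane sensor of low glucose, and YHT4 as similar to a high-affinity glucose transporter of *Kluyveromyces lactis*.

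The libraries held between 15667204 and 22650213 counts in genes. The deleted genes did not vanish from every library that carries the label of a deletion, and this bears on each comparison with the mutants. In the 3 libraries labelled Ylrep1Δ, YlREP1 stood at 26.4%, 14.0% and 82.5% of its mean in WT cells with 4NAG. In the 3 libraries labelled Ylngs1Δ, YlNGS1 stood at 0.0733% (1 read), 22.9% and 46.7% of that mean. Ylrep1Δ and Ylngs1Δ libraries are therefore named here by their labels, and results are also given without single libraries where that changes them. Whether the 3 libraries of a group stand for independent cultures is not stated, and a p-value here speaks only for the scatter among libraries, which may be technical.

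In YNB-GlcNAc medium the 4 genes formed 2 classes far apart in level. YHT4 was the most abundant in all 12 libraries and YHT1 came second, while YHT2 and YHT3 gave no more than 15 reads in any library. Levels of different genes are compared here as FPKM, a read density scaled to library size and gene length, which allows for gene length. In WT cells with 4NAG, YHT4 averaged 261 ± 7.16 FPKM (SD, n = 3), YHT1 37.0 ± 4.08 FPKM, YHT2 0.244 ± 0.0663 FPKM and YHT3 0.202 ± 0.0916 FPKM. YHT4 and YHT1 differed by far more than their spread, whereas the SDs of YHT2 and YHT3 overlapped. In that group YHT4 ranked between 721 and 762 among the 6400 genes ordered by FPKM, and YHT1 between 2933 and 3265. YHT4 transcripts were thus among the more abundant ones in a medium with GlcNAc and no added glucose.

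**Figure D1:**
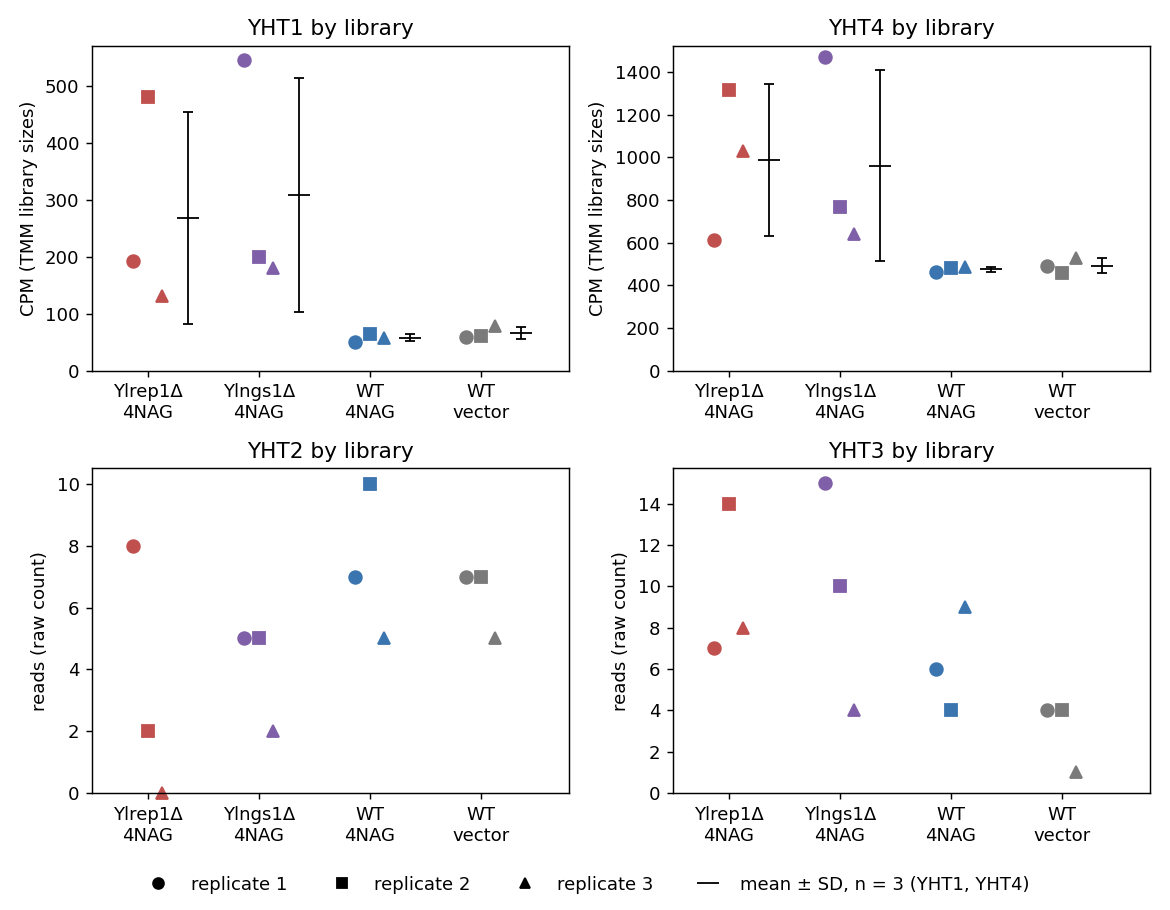
Level of each hexose transporter gene in the 12 libraries, as CPM for YHT1 and YHT4 and as raw reads for YHT2 and YHT3; points are libraries, marker shapes give the replicate number, and bars give mean ± SD. YHT1 in mutant libraries lay between 130.4 and 545 CPM, above all 6 WT libraries, while YHT2 and YHT3 stayed at 15 reads or fewer everywhere. Against WT with 4NAG alone, 16.9% (Ylrep1Δ) and 21.5% (Ylngs1Δ) of all genes tested had mutant libraries all higher, and the share against all 6 was not computed.

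YHT1, the gene related to the glucose sensor Snf3, was higher in every mutant library than in any WT library. Against WT with 4NAG alone, 16.9% of all genes tested had Ylrep1Δ libraries all higher, and 21.5% had Ylngs1Δ libraries all higher. The share against all WT libraries was not computed. The level of YHT1 is given in CPM, its count scaled to the library's TMM-adjusted total. It had 193, 480.2 and 130.4 CPM in the Ylrep1Δ libraries (3380, 11524 and 2120 reads). It had 545, 200.1 and 179 CPM in the Ylngs1Δ libraries (10246, 3337 and 2967 reads). In WT cells with 4NAG it had 50.9, 63.7 and 57.8 CPM (988, 1368 and 1091 reads). Replicate 2 of Ylrep1Δ and replicate 1 of Ylngs1Δ stood well above the other 2 libraries of their strain, so that the highest library exceeded the lowest by 3.68 times in Ylrep1Δ and 3.04 times in Ylngs1Δ, against 1.25 times in WT. By FPKM rank, YHT1 stood between 531 and 1903 in Ylrep1Δ libraries and between 456 and 1474 in Ylngs1Δ libraries, higher in the order than in any WT library.

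A gene was called changed when edgeR's quasi-likelihood test gave a Benjamini-Hochberg adjusted p under 0.05 over all genes tested and the difference was at least 2-fold. In Ylngs1Δ cells YHT1 rose 5.29-fold over WT with 4NAG (log2 fold change 2.40, SE 0.42, 95% interval 1.40 to 3.41, edgeR adjusted p = 0.0110). It was the only YHT gene called in that comparison, in which 5.36% of the 6040 genes tested were called higher. By p it stood 411th. The call held without any one Ylngs1Δ library, although without replicate 1 the log2 fold change was 1.73. Without any one of the 3 WT libraries with 4NAG, the fold change stayed between 2.32 and 2.48 on the log2 scale, but the edgeR adjusted p was 0.0653, 0.0589 and 0.0598 and YHT1 was not called, in fits that called 248 to 273 genes in all, against 463.

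In Ylrep1Δ cells YHT1 averaged 4.55-fold above WT with 4NAG (log2 fold change 2.19, SE 0.45, 95% interval 1.13 to 3.24), and the edgeR adjusted p of 0.0578 missed the threshold. No YHT gene was called in that comparison, in which 1.06% of the 6041 genes tested were called higher. At an unadjusted p under 0.05, YHT1 and YHT4 passed, as did 4.04% of the genes tested on the higher side. The lowest Ylrep1Δ library was still 2.05 times the highest WT library, and 16.9% of all genes tested had groups that did not overlap with the mutant higher. YHT1 passed the threshold without any one of the Ylrep1Δ libraries. Its edgeR adjusted p was 0.0289 without replicate 1, 0.0368 without replicate 2 and 0.00837 without replicate 3, the library in which YlREP1 stood at 82.5% of WT. The log2 fold changes were then 2.37, 1.48 and 2.51, so that replicate 2 set much of the size. DESeq2 called it as well (adjusted p = 7.42e-06), and 305 genes in all, against 84 by edgeR. Leaving out any one WT library moved the fold change little (log2 fold change 2.103, 2.275 and 2.192) but gave edgeR adjusted p-values of 0.257, 0.237 and 0.231, in fits that called 1 gene of all those tested.

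YHT4, the more abundant of the main carriers, was also higher in each mutant library than in each WT library with 4NAG, by a smaller ratio. It had 610.4, 1317 and 1030.3 CPM in the Ylrep1Δ libraries (10713, 31615 and 16747 reads). It had 1471, 768 and 639 CPM in the Ylngs1Δ libraries (27660, 12806 and 10576 reads). In WT cells with 4NAG it had 461, 479.9 and 483 CPM (8946, 10298 and 9119 reads), a narrow range with an SD of 2.50% of the mean. The same libraries that led for YHT1 led for YHT4, but Ylrep1Δ replicate 3 came second for YHT4 and last for YHT1.

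YHT4 was not called in either mutant. In Ylrep1Δ cells its log2 fold change over WT with 4NAG was 1.03 (SE 0.26, 95% interval 0.42 to 1.64, edgeR adjusted p = 0.0809). In Ylngs1Δ cells it was 1.00 (SE 0.29, 95% interval 0.32 to 1.69, edgeR adjusted p = 0.0556), which is at the 2-fold limit itself. It passed at an unadjusted p under 0.05, where 6.42% of the genes tested passed on the higher side. The lowest library of each mutant was 1.26 times (Ylrep1Δ) and 1.32 times (Ylngs1Δ) the highest WT library with 4NAG, and 21.5% of the genes tested had Ylngs1Δ libraries all above WT. DESeq2 called YHT4 in Ylrep1Δ cells (log2 fold change 1.04, DESeq2 adjusted p = 0.00272), where it called 305 genes in all, against 84 by edgeR. In Ylngs1Δ cells DESeq2 gave 0.997, under 2-fold (DESeq2 adjusted p = 0.00731). With edgeR, YHT4 was called in Ylrep1Δ cells without replicate 1 (log2 fold change 1.28, edgeR adjusted p = 0.00568) and in Ylngs1Δ cells without replicate 3 (1.20, edgeR adjusted p = 0.0221). Without Ylngs1Δ replicate 1, the library with 1 read in YlNGS1, its log2 fold change was 0.57. With that library as the only one of its strain, and its spread taken from the WT libraries, it was 1.60 for YHT4 and 3.21 for YHT1.

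**Figure D2:**
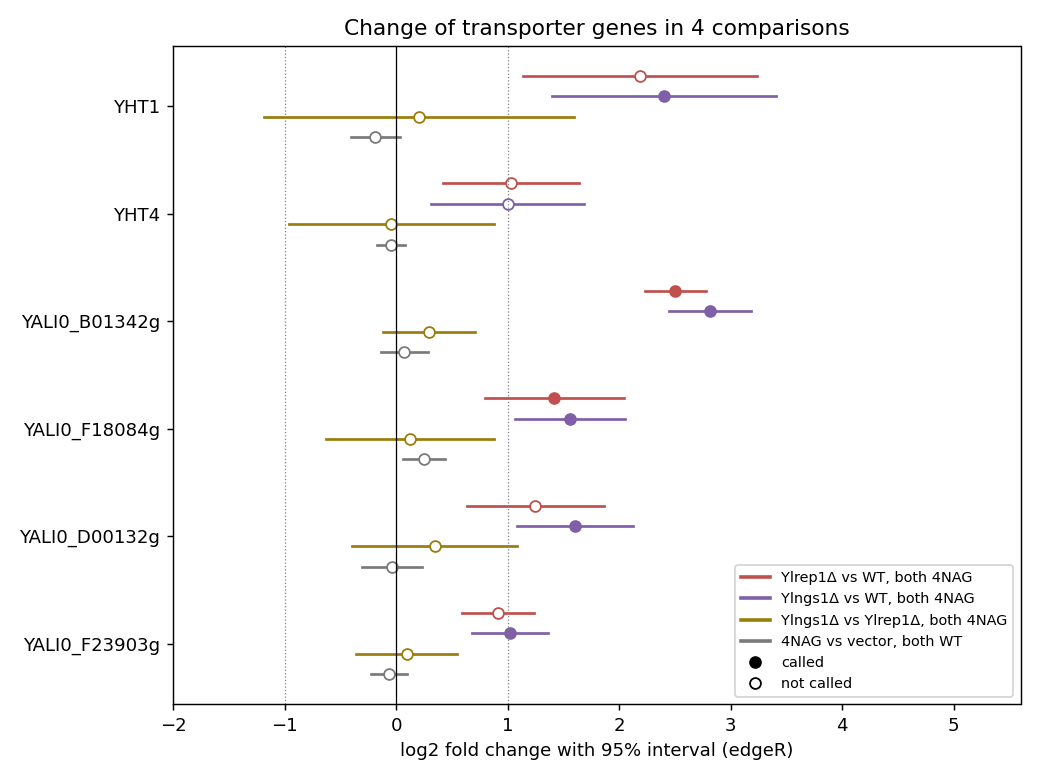
log2 fold change (x axis) with its 95% interval from edgeR for YHT1, YHT4 and the 4 other annotated transporter genes (y axis) in each comparison; filled circles passed both thresholds and dotted lines mark a 2-fold change. YHT1 and YHT4 lay to the right of 0 in both mutants against WT, and of these 4 values only YHT1 in Ylngs1Δ was called.

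Among libraries of a strain, YHT1 ran opposite to the level of the deleted gene. In Ylrep1Δ replicates 2, 1 and 3, YHT1 was 8.35, 3.35 and 2.27 times its mean in WT with 4NAG where YlREP1 was at 14.0%, 26.4% and 82.5%. In Ylngs1Δ replicates 1, 2 and 3, it was 9.48, 3.48 and 3.12 times its WT mean where YlNGS1 was at 0.0733%, 22.9% and 46.7%. Libraries with fewer reads from the deleted gene thus had more YHT1 in both strains. This order is not particular to YHT1: of 5475 genes averaging 5 CPM or more, 16.7% had it in Ylrep1Δ, 35.0% in Ylngs1Δ and 10.8% in both. The libraries that led, Ylngs1Δ replicate 1 and Ylrep1Δ replicate 2, deviated from their group means alike over these genes (r = 0.87). For YHT4 the order held in Ylngs1Δ, with 3.10, 1.62 and 1.35 times the WT mean. It was broken in Ylrep1Δ, where YHT4 was 2.77, 1.29 and 2.17 times the WT mean in the same order of libraries. With 3 libraries a strain no test was made, and the part of the remaining reads in the results was not tested.

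**Figure D3:**
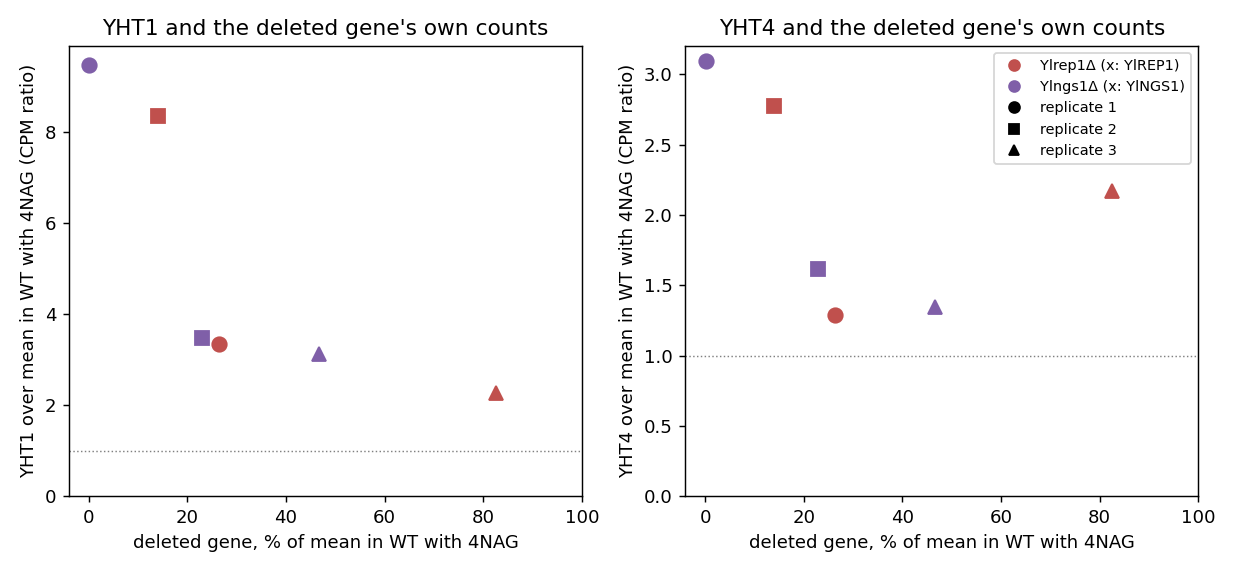
Ratio of YHT1 (left) and YHT4 (right) to its mean in WT with 4NAG, against the level of the deleted gene in the same library as a percent of that gene's WT mean; each point is 1 mutant library and the dotted line marks the WT mean. The libraries with the least of the deleted gene, at 0.0733% and 14.0%, had the highest ratios of both genes.

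No difference between the mutants was detected in either main carrier, and the intervals were wide. Ylngs1Δ against Ylrep1Δ gave a log2 fold change of 0.21 for YHT1 (SE 0.59, 95% interval -1.19 to 1.60) and of -0.04 for YHT4 (95% interval -0.96 to 0.88), both with an edgeR adjusted p of 1.00. No gene of the 6016 tested was called by edgeR in that comparison (0%), nor by DESeq2 or limma, and 28 genes passed 2-fold at an unadjusted p under 0.05, none of them a YHT gene. The intervals leave room for a YHT1 difference past 2-fold in either direction. Both mutant comparisons share the same 3 WT libraries.

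Plasmid-borne expression of the GlcNAc genes left both carriers close to the vector control in WT cells. YHT1 had 50.9, 63.7 and 57.8 CPM in WT cells with 4NAG, against 59.2, 59.8 and 78.2 CPM in WT cells with the vector. YHT4 had 461, 479.9 and 483 CPM with 4NAG, against 489.6, 456 and 527 CPM with the vector. The groups overlapped for both genes, with the highest YHT1 and YHT4 levels of WT cells in replicate 3 with the vector. The log2 fold change was -0.19 for YHT1 (SE 0.10, 95% interval -0.41 to 0.03, edgeR adjusted p = 0.274) and -0.04 for YHT4 (SE 0.06, 95% interval -0.17 to 0.08, edgeR adjusted p = 0.689). No YHT gene was called, where 0.182% of the 6043 genes tested were called, all higher. DESeq2, limma and an unadjusted p under 0.05 called no YHT gene either, and both intervals lay inside a 2-fold change.

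YHT2 and YHT3, the reserve carriers, remained near the limit of detection in all groups. YHT2 had 8, 2 and 0 reads in Ylrep1Δ libraries, 5, 5 and 2 in Ylngs1Δ libraries, 7, 10 and 5 in WT with 4NAG, and 7, 7 and 5 in WT with the vector. The library at 0 reads allows a level of up to 0.191 CPM (3 reads of its total). YHT3 had 7, 14 and 8 reads in Ylrep1Δ libraries, 15, 10 and 4 in Ylngs1Δ libraries, 6, 4 and 9 in WT with 4NAG, and 4, 4 and 1 in WT with the vector. In reads, the groups shared part of their range in every comparison for both genes, though they only met in 2 of them, at 5 reads for YHT2 in Ylngs1Δ and WT with 4NAG, and at 4 reads for YHT3 in WT with 4NAG and WT with the vector. In CPM, the lowest YHT3 library of WT with 4NAG was 1.003 times the highest with the vector, a gap between libraries of 4 reads. Of all genes tested, 14.8% had WT libraries with 4NAG all above those with the vector. The summed reads of YHT2 were 10 (exact Poisson 95% interval 4.80 to 18.4) in Ylrep1Δ and 12 (6.20 to 21.0) in Ylngs1Δ, against 22 (13.8 to 33.3) in WT with 4NAG. Those of YHT3 were 29 (19.4 to 41.6) in both mutants, against 19 (11.4 to 29.7) in WT with 4NAG, and these intervals cover counting error only.

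Both genes fell below the low-count filter, apart from YHT3 in Ylngs1Δ against Ylrep1Δ (log2 fold change 0.15, SE 0.53, edgeR adjusted p = 1.00). With no filter neither was called in any comparison. YHT2 then had log2 fold changes of -1.04 (95% interval -3.25 to 1.16) in Ylrep1Δ and -0.68 (-2.01 to 0.66) in Ylngs1Δ over WT with 4NAG. YHT3 had 0.60 (-0.65 to 1.85) and 0.75 (-0.67 to 2.16). All 4 intervals included 0, and the largest differences they leave room for are a lower YHT2 and a higher YHT3 in the mutants. Reads shared between related transporter genes could also enter such low counts, since no source used here says how multiply mapping reads were counted.

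The summed FPKM of the 4 genes was 432, 1117 and 679 in Ylrep1Δ libraries and 1233, 526 and 438 in Ylngs1Δ libraries, against 286, 304 and 305 in WT with 4NAG and 316, 295 and 344 in WT with the vector. YHT2 and YHT3 together made up at most 0.156% of that sum. YHT1 took 26.9%, 29.9% and 12.9% of it in Ylrep1Δ and 30.2%, 23.3% and 24.7% in Ylngs1Δ. In WT with 4NAG it took 11.4%, 13.4% and 12.2%, and in WT with the vector 12.4%, 13.3% and 14.8%. In 5 of the 6 mutant libraries YHT1 thus had a larger share than in any WT library, and the exception was Ylrep1Δ replicate 3. In that library YHT1 was 2.27 times and YHT4 2.17 times its mean in WT with 4NAG. YlREP1 stood at 82.5% of its mean there. Why the share was low in that library was not tested.

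**Figure D4:**
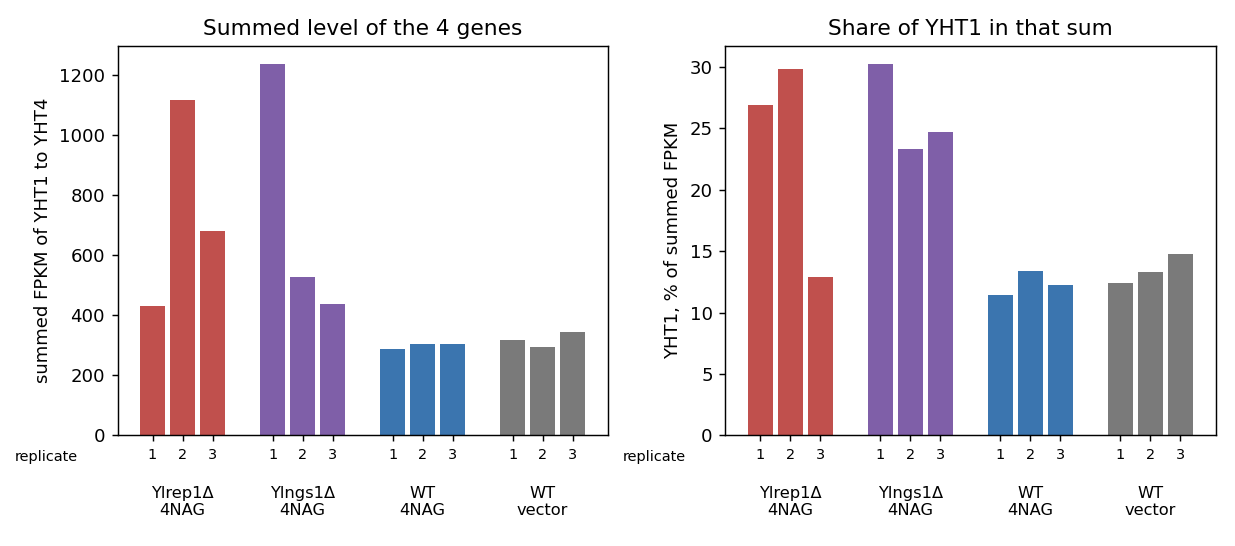
Summed FPKM of YHT1 to YHT4 (left) and percent of that sum from YHT1 (right) in each of the 12 libraries, grouped by strain and plasmid. The sum was 432 or more in every mutant library and at most 344 in WT, and the YHT1 share was 23.3% or more in 5 mutant libraries and 12.9% in Ylrep1Δ replicate 3.

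YHT4 exceeded YHT1 by 2.71, 2.35 and 6.76 times in Ylrep1Δ libraries and by 2.31, 3.28 and 3.05 times in Ylngs1Δ libraries, against 7.75, 6.44 and 7.15 times in WT with 4NAG. The log2 ratio of YHT1 to YHT4 was 1.32 higher in Ylngs1Δ than in WT with 4NAG, with no overlap (exact permutation test, two-sided p = 0.1, the smallest that 3 against 3 libraries allow, 0.4 after Benjamini-Hochberg adjustment over 4 comparisons). In Ylrep1Δ it was 1.02 higher than in WT with 4NAG, with overlap (exact permutation test, p = 0.2). This design cannot reach 0.05 in such a test. Across the 6 mutant libraries, log2 CPM of the pair had a Pearson's r of 0.73 (exact permutation p = 0.0986). Spearman's rho was 0.60 (exact permutation p = 0.242). Without the 2 libraries farthest from the median of YHT1, Ylngs1Δ replicate 1 and Ylrep1Δ replicate 2, r was -0.82, so the relation rests on those libraries.

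The study's tables annotate 4 other genes as similar to transporters of glucose or of the polyol myo-inositol, and these were set beside the YHT genes. They stood in the study's lists of changed genes from these same libraries, so their direction is no independent evidence. YALI0_B01342g, annotated like YHT4 as similar to the *K. lactis* high-affinity glucose transporter, had 222, 223 and 235 CPM in Ylrep1Δ libraries and 281, 324 and 229 CPM in Ylngs1Δ libraries, against 36.6, 39.6 and 41.8 CPM in WT with 4NAG. It rose by 2.51 on the log2 scale in Ylrep1Δ (SE 0.11, edgeR adjusted p = 0.000438) and by 2.82 in Ylngs1Δ (SE 0.15, edgeR adjusted p = 0.000368). Its libraries within a strain were closer together than those of YHT1, with a highest library 1.06 times the lowest in Ylrep1Δ and 1.41 times in Ylngs1Δ. By p it was the first of all genes tested in Ylrep1Δ against WT with 4NAG.

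The other 3 genes of this list are annotated as similar to myo-inositol carriers. YALI0_F18084g had log2 fold changes of 1.42 in Ylrep1Δ (edgeR adjusted p = 0.0483) and 1.56 in Ylngs1Δ (edgeR adjusted p = 0.00442), both called. The first call was lost without Ylrep1Δ replicate 2 (log2 fold change 1.12, edgeR adjusted p = 0.0645). It was also lost without any one WT library with 4NAG, where the log2 fold changes were 1.32, 1.49 and 1.46 (edgeR adjusted p = 0.232, 0.230 and 0.219) and 1 gene of all those tested was called. YALI0_D00132g was called in Ylngs1Δ (1.61, edgeR adjusted p = 0.00475) and not in Ylrep1Δ (1.25, edgeR adjusted p = 0.0582). In Ylrep1Δ it was called without replicate 1 (1.37, edgeR adjusted p = 0.0288) or replicate 3 (1.42, edgeR adjusted p = 0.0162). DESeq2 also called it there (1.26, DESeq2 adjusted p = 0.000385). It was not called without Ylrep1Δ replicate 2 (0.91, edgeR adjusted p = 0.0590) or without any one WT library with 4NAG. YALI0_F23903g was called in Ylngs1Δ (1.02, edgeR adjusted p = 0.00510) and stayed under 2-fold in Ylrep1Δ (0.91, edgeR adjusted p = 0.0358). Without Ylngs1Δ replicate 1, or WT replicate 1 or 3 with 4NAG, it was under 2-fold in Ylngs1Δ too (0.90, 1.00 and 0.99).

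In all, 2 of the 4 genes were called higher in Ylrep1Δ, where 1.06% of all genes tested were, and 4 of 4 in Ylngs1Δ, where 5.36% were. Their median log2 fold changes were 1.33 and 1.58, where the medians over all genes tested were 0.01 and 0.02. Since the list was taken from genes that the study found changed in these libraries, neither its counts nor its medians are read as a result. None was called in WT with 4NAG against vector, where their median was 0.02. All 4 had mutant libraries entirely above the WT libraries with 4NAG, as YHT1 and YHT4 did and as did 16.9% of all genes tested in Ylrep1Δ and 21.5% in Ylngs1Δ.

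The genes whose profile over the 12 libraries was most like that of YHT1 were chosen by Pearson's r of log2(CPM + 1), among 5474 other genes averaging 5 CPM or more. YALI0_B19492g, annotated as the general amino acid permease YlGap1, came first (r = 0.993), ahead of YALI0_C23617g (r = 0.989), annotated as Gpr1. YALI0_B21582g (r = 0.988) is MHY1, which encodes a zinc finger transcription factor of the yeast-to-filament transition. YALI0_D24233g (r = 0.988) carries no annotation used here, and YALI0_B19228g (r = 0.986) is annotated with a BTB domain. These values describe likeness over libraries that share strain differences, and 356 genes had an r above 0.9 with YHT1.

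For YHT4 the closest genes were YALI0_E29307g (r = 0.990), YALI0_C00451g (r = 0.989), annotated as similar to the dicarboxylic amino acid permease Dip5, YALI0_F22033g (r = 0.983), YALI0_C05511g (r = 0.982) and YALI0_F12837g (r = 0.981). No gene was among the closest 5 of both carriers. With 356 genes above an r of 0.9 for YHT1 and 200 for YHT4, such short lists do not set the carriers apart. YHT1 and YHT4 had an r of 0.91 with each other, which placed YHT4 309th in likeness to YHT1 and YHT1 164th in likeness to YHT4. For YHT2 and YHT3 the closest genes were YALI0_B17644g (r = 0.916) and YALI0_F15345g (r = 0.935), but with 15 reads or fewer a library these values carry little information.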

How the data were processed

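Total RNA was sequenced from TruSeq libraries. The authors deposited raw counts per gene and FPKM values (read density per gene length) in 4 tables. TopHat2 (2.1.1) with Cufflinks (2.2.1) stand in the submitters' processing notes, as does a mouse genome build, mm10, which cannot be the reference of these yeast genes. No source used here gives the counting program, the yeast assembly or the annotation. Because of this, no coordinates or sequences are printed. Columns of the authors' own comparisons (fold changes and p-values) were not used.

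Counts were tested pair by pair with edgeR 4.0.16 (R 4.3.3): filterByExpr, TMM normalization, quasi-likelihood F-test, Benjamini-Hochberg adjustment over all genes tested. Called means adjusted p under 0.05 and at least 2-fold. CPM use TMM library sizes. FPKM served to compare genes, and for the ranks, sums and shares by library. They were used as deposited, with no TMM scaling, so sums of different libraries may also differ by scaling. The script was tested on simulated data. Alternatives used DESeq2 1.42.0, limma 3.58.1, other filters, 1 fit over all libraries, a replicate block and single libraries left out. A list of hexose-use genes was not used because no source annotated its members. Replicates differed beyond sampling noise in every group (chi-square per degree of freedom 61.6 to 425 in mutant groups and 7.37 to 14.4 in WT groups).

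Replicate numbers come from the sample titles. Deviations of same-numbered libraries correlated above 0.1 for all 3 pairs only in WT with 4NAG against vector (0.11 to 0.17).

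The genes and lists were chosen with earlier results of these data known. Named genes were the 4 members, the 5 genes most like each by Pearson's r (for YHT2 and YHT3 only the first is given), the annotated list and both deleted genes.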

Additional observations from a re-analysis of the deposited data

How the results depend on the processing

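YHT1 kept its direction in all 15 alternatives in Ylrep1Δ (called in 8) and all 16 in Ylngs1Δ (called in 13), and YHT4 likewise (called in 3 and 3). In Ylrep1Δ against WT with 4NAG, where no YHT gene was called, 2 were with DESeq2 or an unadjusted p, and 1 with all 12 libraries in 1 fit or with limma sample quality weights. These settings also called more of all genes (305, 354, 215 and 213, against 84). Leaving out single libraries gave 0 to 2. In Ylngs1Δ against WT with 4NAG, where 1 was called, 2 were with an unadjusted p or with only Ylngs1Δ replicate 1 (563 and 1078 of all genes, against 463), and leaving out single libraries gave 0 to 2. The cause was not tested.

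With the replicate block, 1 YHT gene was called in Ylrep1Δ (YHT1, log2 fold change 1.98, edgeR adjusted p = 0.0344; 101 of all genes). Same-numbered libraries deviated together in neither mutant comparison with WT (r -0.30 to 0.04 and -0.22 to 0.04). Between the mutants, r was -0.66 for replicates 1, -0.58 for replicates 2 and 0.22 for replicates 3. Whether same-numbered libraries share more than a number was not tested. The block changed no other call of a YHT gene.

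Some differences close to 0 changed sign. Ylngs1Δ against Ylrep1Δ gave -0.28 for YHT1 with limma and -0.47 to 0.92 without single libraries. It gave 0.22 for YHT4 without replicate 3 of both mutants and -0.47 to 0.21 without single libraries, and -0.22 to 0.48 for YHT3. YHT4 in WT with 4NAG against vector gave -0.093 to 0.0094 without single libraries. Over all genes the count called ran between 1 and 432 in Ylrep1Δ (84 as reported) and between 248 and 1078 in Ylngs1Δ (463). Groups of 3 libraries, unequal remains of the deleted genes and under 16 reads for YHT2 and YHT3 limit these comparisons.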
